A study of Mus musculus with 12 samples.

Results

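The STAT genes encode signal transducers and activators of transcription. A total of 6 of them, Stat2, Stat3, Stat4, Stat5a, Stat5b and Stat6, were followed here through 12 RNA-seq libraries of mouse CMM cells, out of 24310 features listed in each library. They were chosen by gene symbol, each symbol occurred in every library, and 5 of the 6 passed the filter on low values (10886 features did); Stat4 did not. CMM cells carry GFP and model acute myeloid leukaemia with the inversion inv(16) in mice. The cells were engrafted in C57BL/6 mice, and treatment started once about 1% of the blood was GFP positive. All mice received 3 intravenous injections on alternate days, of PBS, of CpG-scrODN or of CpG-STAT3dODN. CpG motifs trigger the endosomal sensor TLR9, the attached decoy is DNA that captures STAT3 protein, and the scrambled version is the control for the decoy. Spleens were harvested 1 day after the final dose, c-Kit positive cells were enriched on beads and total RNA was extracted. Each group had 4 libraries, and nothing in the labels says whether a library was 1 mouse or a pool. The design text adds a sort for GFP that the extraction protocol does not list.

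The group given by a sample's label and the group in its column header differed in 12 of 12 libraries. The header read DEC where the label read PBS, PBS where the label read CpG-scrODN, and SCR where the label read CpG-STAT3dODN. Groups are named below by label, and the headers stand for another order of the same 3 sets of libraries. No difference is assigned to a treatment, because label and header cannot both be right.

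STAT proteins wait in the cytoplasm until a cytokine receptor is engaged. Receptor-bound Janus kinases (JAKs) then phosphorylate them, and they pair, enter the nucleus and bind DNA, while SOCS proteins and phosphatases switch the signal off. STAT3 serves the interleukin-6 and G-CSF receptors, STAT5A and STAT5B serve interleukin-3 and GM-CSF in blood progenitors, STAT6 serves interleukin-4, STAT4 serves interleukin-12 in T and NK cells, and STAT2 joins the interferon-activated complex ISGF3. A decoy oligonucleotide acts on the protein, so a level of Stat3 mRNA is no readout of whether the decoy worked.

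The genes lie on 3 chromosomes in RefSeq GRCm38.p6, the build that mm10 denotes. Stat5b (chr11:100780731-100859004), Stat5a (chr11:100859351-100885169) and Stat3 (chr11:100886806-100939594) follow each other on chromosome 11, with Stat5a on the plus strand and both others on the minus strand. Stat6 (chr10:127642955-127660987) and Stat2 (chr10:128270498-128292853) share chromosome 10, and Stat4 (chr1:51987106-52107189) is on chromosome 1. None of these spans overlap. The sources do not say that counting used strand, so reads beyond the ends of neighbouring genes cannot be assigned with certainty.

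Stat5a and Stat5b are near-identical copies, so their values depend on how reads that fit both were shared out. Their coding sequences (GENCODE models on GRCm38) matched at 90.8% of 2291 aligned bases, while the other 14 pairs of STAT genes matched at 58.2% to 65.3%. Of all 36-base stretches of the Stat5a coding sequence, 32.7% occurred in Stat5b, and 16.7% of its 75-base stretches did. No 36-base stretch was shared by any of the other 14 pairs. The longest identical run was 324 bases. The 90-base window with the most differences (28, in capitals) is shown first for both genes, followed by the first 90 bases of the identical run. The first window spans 2 coding exons of each gene, at chr11:100861425-100861769 (plus strand) and chr11:100804978-100808436 (minus strand), introns included in the coordinates. The second lies in 1 exon of each, at chr11:100874023-100874112 and chr11:100798612-100798701.
Stat5a, coding bases 88 to 177: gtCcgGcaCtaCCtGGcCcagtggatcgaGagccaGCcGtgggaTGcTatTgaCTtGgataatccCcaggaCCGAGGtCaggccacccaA
Stat5b, coding bases 88 to 177: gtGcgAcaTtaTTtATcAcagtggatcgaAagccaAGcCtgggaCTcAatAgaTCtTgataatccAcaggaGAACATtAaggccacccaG
Stat5a and Stat5b, coding bases 571 to 660: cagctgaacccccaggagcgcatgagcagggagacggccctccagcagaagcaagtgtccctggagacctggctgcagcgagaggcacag
A read inside the second window fits both genes equally well. Neither the read length nor the treatment of such reads is known from the labels.

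Sites of the kind that STATs bind were looked for in the 250 bases upstream of the RefSeq start sites. TTCNNNGAA, the general STAT dimer site, was in 0 of 9 windows of the 6 genes and in 7.02% of 32851 windows of all genes. TTCNNNNGAA, the spacing that STAT6 prefers, was in 1 of 9 and in 5.85% of all windows. GAAANNGAAA, the site of ISGF3, was in 2 of 9 and in 2.98% of all windows. Both strands were searched, and a match is a description of letters and not a bound site. The windows of Stat2 and Stat4 are shown because they hold all 3 matches, which are in capitals. In Stat2 these were TTTCAGTTTC (the ISGF3 site read on the other strand, position -222 from the start) and TTCCCTAGAA (position -210), and in Stat4 GAAAGTGAAA (position -97 from a downstream start inside the gene).
Stat2, chr10:128270248-128270497, plus strand: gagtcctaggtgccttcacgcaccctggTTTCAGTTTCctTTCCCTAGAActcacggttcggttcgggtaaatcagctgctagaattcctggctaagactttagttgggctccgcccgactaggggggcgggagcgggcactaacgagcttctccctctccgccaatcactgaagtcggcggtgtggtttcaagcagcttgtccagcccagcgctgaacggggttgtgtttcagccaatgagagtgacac
Stat4, chr1:52007990-52008239, plus strand: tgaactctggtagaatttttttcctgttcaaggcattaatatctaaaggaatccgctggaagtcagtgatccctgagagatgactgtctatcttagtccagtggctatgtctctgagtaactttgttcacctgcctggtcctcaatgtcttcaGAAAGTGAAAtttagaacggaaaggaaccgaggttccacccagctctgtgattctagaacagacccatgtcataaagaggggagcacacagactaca

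Values are RPKM, read counts scaled by transcript length and library size, so levels of different genes can be compared. Stat3 was the highest of the 6 by group mean in every group, at 43.2 ± 6.82 RPKM in the PBS-labelled libraries, 45.0 ± 1.56 in the CpG-scrODN-labelled ones and 43.5 ± 6.78 in the CpG-STAT3dODN-labelled ones (SD, n = 4). Among the CpG-scrODN-labelled libraries the order was Stat3, Stat5a (38.8 ± 2.81), Stat5b (34.4 ± 1.62), Stat6 (28.3 ± 0.729), Stat2 (7.81 ± 0.466) and Stat4 (0.243 ± 0.0882). The only neighbours in that order whose ranges overlapped were Stat5a and Stat5b, and there Stat5a was still the higher in all 4 libraries. In both other groups the 4 highest, Stat3, Stat5a, Stat6 and Stat5b, overlapped with their neighbours in the order. Stat6 took the second place among the PBS-labelled libraries (35.6 ± 13.3, beside 34.7 ± 5.66 for Stat5a and 28.1 ± 4.84 for Stat5b). It was above Stat5a in only 1 of those 4 libraries. Among the CpG-STAT3dODN-labelled libraries, Stat5a stood at 42.7 ± 8.93, Stat6 at 35.8 ± 10.6 and Stat5b at 30.8 ± 6.55. Stat2 and Stat4 had the lowest means in all 3 groups.

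**Figure D1:**
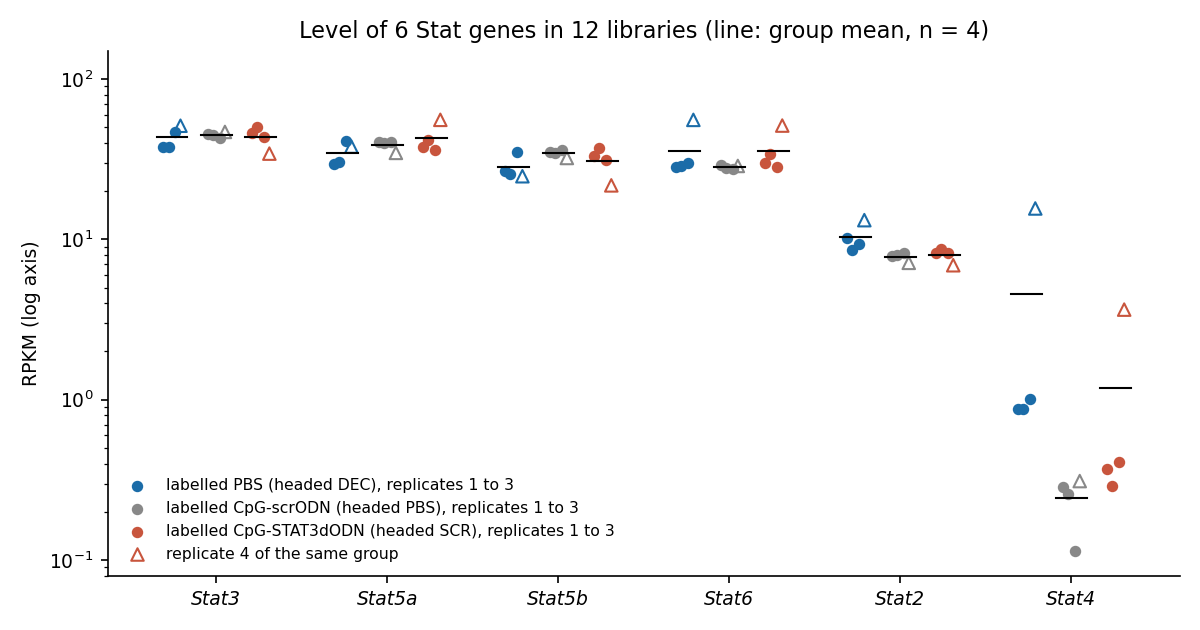
RPKM (log axis) of 6 Stat genes in each of 12 libraries, grouped by label, with the header in the legend; circles are replicates 1 to 3, open triangles replicate 4 and lines group means (n = 4). Stat4 spans from 0.115 to 15.6 RPKM, and replicate 4 of the libraries labelled PBS and CpG-STAT3dODN stands apart for Stat4 and Stat6.

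A pair of libraries stood apart before any comparison. Replicate 4 labelled PBS and replicate 4 labelled CpG-STAT3dODN had 12.9 and 5.91 RPKM of Fos, an immediate-early gene, against 486 to 1156 in the other 10. Their summed level of 21 immediate-early genes was 496 and 484 RPKM, against 2506 to 6379 in the other 10. Not all of these genes were low. Of the 20 tested, 10 were below the other 10 libraries in both and 0 above, beside 18.8% and 23.4% of all tested genes. Egr3, not tested, was above them in both (3.98 and 0.478 against 0.0421 to 0.317 RPKM). The files hold no counts, and a depth of about 31300000 to 36150000 reads per library was estimated from the steps between low values. The groups also differed in markers of other cells. The summed RPKM of 16 B cell markers was 262 to 889 in the PBS-labelled libraries, 12.9 to 34.0 in the CpG-scrODN-labelled ones and 31.1 to 129 in the CpG-STAT3dODN-labelled ones. Kit, used for the enrichment, was present in every library (10.5 to 51.1 RPKM). In bulk samples, fewer cells of a type and less RNA per cell cannot be told apart.

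None of the 5 tested Stat genes was called in any comparison by limma on log2(RPKM + 1) at an adjusted p under 0.05. Over all 10886 genes, 4.15% were called for CpG-scrODN minus PBS (12 higher and 440 lower, or 75 higher and 318 lower after quantile normalization), 1.86% for CpG-STAT3dODN minus PBS and 0% for CpG-STAT3dODN minus CpG-scrODN. At an unadjusted limma p under 0.05 the members counted 1, 1 and 0, Stat2 both times, beside 15.6%, 9.40% and 2.71% of all genes. The first 2 comparisons share the PBS-labelled libraries, and each other pair of comparisons shares a group too, so their values are set side by side and not counted as independent. The median difference of all genes was -0.05, -0.01 and 0.03 on the log2 scale. The call of 0 depends on how libraries are weighted: with limma's library weights, which give less weight to libraries that deviate, Stat2, Stat5a and Stat5b were called for CpG-scrODN minus PBS, and Stat5a and Stat5b for CpG-STAT3dODN minus PBS. That fit called 1812, 1248 and 607 genes in all (16.6%, 11.5% and 5.58%), against 452, 202 and 0 without weights. Of its calls 730, 651 and 532 were higher in the first-named group (6.71%, 5.98% and 4.89% of all genes) and 1082, 597 and 75 lower (9.94%, 5.48% and 0.689%).

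**Figure D2:**
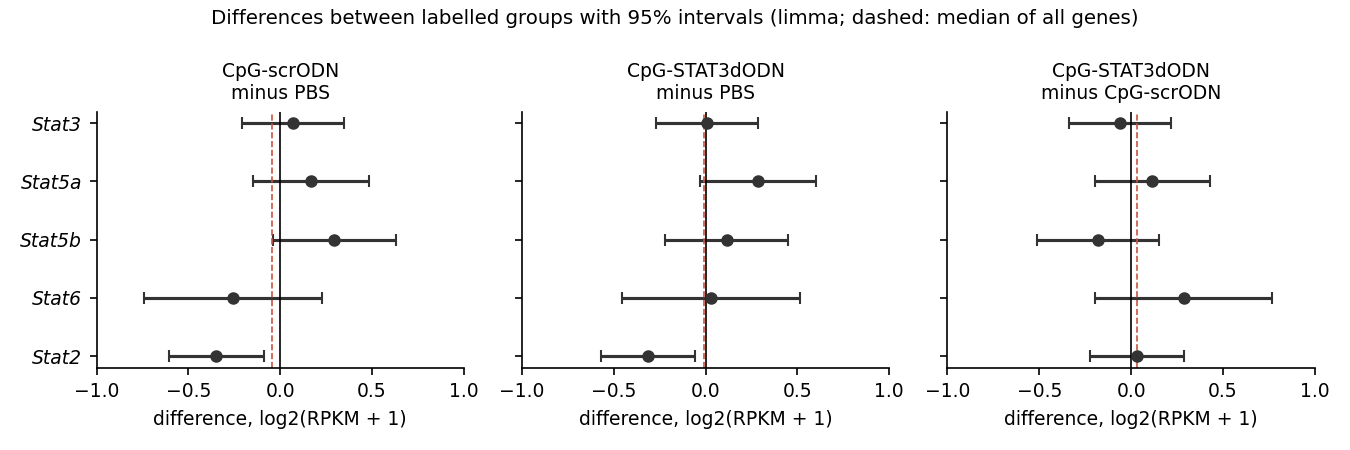
Differences on the log2(RPKM + 1) scale between labelled groups for the 5 tested Stat genes, with 95% intervals from limma (n = 4 libraries a group); the dashed line is the median of all genes tested. The interval of Stat2 leaves out 0 in both comparisons with the PBS-labelled libraries, before adjustment, and that of Stat3 includes 0 in all 3.

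Stat3, the protein product of which the decoy is built to bind, measured 37.5, 37.5, 46.7 and 51.1 RPKM in replicates 1 to 4 labelled PBS. It measured 45.2, 45.0, 43.0 and 46.8 in the CpG-scrODN-labelled ones, and 45.9, 50.3, 43.3 and 34.3 in the CpG-STAT3dODN-labelled ones. The 3 groups overlapped, and the highest and the lowest value were both in the libraries of low Fos. The difference for CpG-scrODN minus PBS was 0.07 (SE 0.13, 95% interval -0.21 to 0.35, limma adjusted p = 0.819), and for CpG-STAT3dODN minus PBS it was 0.01 (interval -0.27 to 0.29, limma adjusted p = 1.00). For CpG-STAT3dODN minus CpG-scrODN it was -0.06 (interval -0.34 to 0.22, limma adjusted p = 0.961). The interval for CpG-STAT3dODN minus PBS runs from 0.828-fold to 1.22-fold of (RPKM + 1), so the design leaves room for a change of that size in either direction. Without both libraries of low Fos the same difference was 0.20 (limma adjusted p = 0.378), and that of CpG-STAT3dODN minus CpG-scrODN turned to 0.05. Over 21 alternative fits the difference for CpG-STAT3dODN minus PBS ran from -0.07 to 0.22. Its lowest limma adjusted p was 0.05003, just over the threshold. For CpG-scrODN minus PBS the range was 0.01 to 0.18, with a lowest limma adjusted p of 0.0958.

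Stat5a carries cytokine signals such as those of interleukin-3 and GM-CSF in progenitors. It measured 29.5, 30.4, 41.1 and 37.9 RPKM in the PBS-labelled libraries, 40.5, 39.8, 40.3 and 34.6 in the CpG-scrODN-labelled ones, and 37.8, 41.4, 35.9 and 55.6 in the CpG-STAT3dODN-labelled ones. The groups overlapped, replicates 1 and 2 labelled PBS were the lowest of all, and the highest was the library of low Fos labelled CpG-STAT3dODN. The differences were 0.17 (95% interval -0.15 to 0.48, limma adjusted p = 0.603) for CpG-scrODN minus PBS and 0.28 (-0.03 to 0.60, limma adjusted p = 0.629) for CpG-STAT3dODN minus PBS. With library weights they were 0.34 (limma adjusted p = 0.0108) and 0.27 (limma adjusted p = 0.0429). For CpG-STAT3dODN minus CpG-scrODN the difference was 0.12 (-0.20 to 0.43, limma adjusted p = 0.960), and it turned to -0.02 without both libraries of low Fos.

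Stat5b, its near copy, measured 26.8, 25.7, 35.3 and 24.8 RPKM in the PBS-labelled libraries, 35.2, 34.4, 35.9 and 32.2 in the CpG-scrODN-labelled ones, and 33.0, 37.2, 31.3 and 21.7 in the CpG-STAT3dODN-labelled ones. The libraries labelled PBS were low except for replicate 3, and the lowest value of all was again in a library of low Fos, where Stat5a was at its highest. The difference was 0.29 (95% interval -0.04 to 0.63, limma adjusted p = 0.389) for CpG-scrODN minus PBS and 0.11 (-0.22 to 0.45, limma adjusted p = 1.00) for CpG-STAT3dODN minus PBS. With library weights these became 0.36 (limma adjusted p = 0.00685) and 0.27 (limma adjusted p = 0.0383). For CpG-STAT3dODN minus CpG-scrODN the difference was -0.18 (-0.51 to 0.15, limma adjusted p = 0.960). Without both libraries of low Fos the 3 differences were 0.24, 0.21 and -0.03, none of them called.

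The ratio of Stat5a to Stat5b was even across 10 of the 12 libraries. It was 1.10, 1.18, 1.16 and 1.53 in the PBS-labelled libraries, 1.15, 1.16, 1.12 and 1.08 in the CpG-scrODN-labelled ones, and 1.15, 1.11, 1.14 and 2.56 in the CpG-STAT3dODN-labelled ones. Both libraries of low Fos were above all others. Group means were 1.24 ± 0.194, 1.13 ± 0.0367 and 1.49 ± 0.714 (SD, n = 4). The log2 ratio differed by -0.13 for CpG-scrODN minus PBS (exact permutation test, two-sided, p = 0.229, adjusted over the 3 comparisons 0.686). It differed by 0.17 for CpG-STAT3dODN minus PBS (exact permutation p = 0.857, adjusted 0.857) and by 0.31 for CpG-STAT3dODN minus CpG-scrODN (exact permutation p = 0.457, adjusted 0.686). The smallest p that 4 against 4 libraries allow is 0.0286. Without both libraries of low Fos the 3 differences were -0.03, -0.02 and 0.01, so the second changed sign.

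Stat6, the interleukin-4 factor, measured 28.3, 28.7, 29.9 and 55.6 RPKM in the PBS-labelled libraries, 29.2, 27.9, 27.6 and 28.7 in the CpG-scrODN-labelled ones, and 29.9, 33.9, 28.1 and 51.2 in the CpG-STAT3dODN-labelled ones. All libraries other than the 2 of low Fos lay between 27.6 and 33.9 RPKM, and those 2 were 1.94 and 1.79 times the median of the other 10. The differences were -0.26 (95% interval -0.74 to 0.23, limma adjusted p = 0.602), 0.03 (-0.46 to 0.51, limma adjusted p = 1.00) and 0.29 (-0.20 to 0.77, limma adjusted p = 0.960) in the same order of comparisons. Without both libraries of low Fos they were -0.03, 0.07 and 0.10, none of them called.

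Stat2, the interferon factor, measured 10.2, 8.62, 9.31 and 13.2 RPKM in the PBS-labelled libraries, 7.91, 7.99, 8.21 and 7.14 in the CpG-scrODN-labelled ones, and 8.21, 8.77, 8.25 and 6.90 in the CpG-STAT3dODN-labelled ones. All 4 libraries labelled PBS were above all 4 labelled CpG-scrODN, a full split seen, in either direction, for 13.9% of all genes. The libraries labelled CpG-STAT3dODN overlapped with both others. The mean for CpG-scrODN was 0.757 times that for PBS, with a difference of -0.35 (SE 0.12, 95% interval -0.60 to -0.09, limma adjusted p = 0.157). For CpG-STAT3dODN minus PBS it was -0.31 (-0.57 to -0.06, limma adjusted p = 0.334), and for CpG-STAT3dODN minus CpG-scrODN 0.03 (-0.22 to 0.29, limma adjusted p = 0.972). With library weights the first was -0.22 (limma adjusted p = 0.0366). Without both libraries of low Fos it was -0.23 (limma adjusted p = 0.0916) and the second -0.14 (limma adjusted p = 0.457). The B cell markers given above were highest in the same libraries labelled PBS. In replicate 4 labelled CpG-STAT3dODN their sum was 129 RPKM, the highest outside the PBS-labelled libraries, while Stat2 was at its lowest of all (6.90). The part of B cells in the values of Stat2 was not tested.

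Stat4, the interleukin-12 factor of T and NK cells, was low in most libraries. It measured 0.870, 0.881, 1.01 and 15.6 RPKM in the PBS-labelled libraries, 0.288, 0.259, 0.115 and 0.311 in the CpG-scrODN-labelled ones, and 0.368, 0.288, 0.408 and 3.65 in the CpG-STAT3dODN-labelled ones. The libraries of low Fos were 45.9 and 10.7 times the median of the other 10, and among the other 10 the replicates 1 to 3 labelled PBS were the highest. At the estimated depth this was about 79.8 to 90.9 reads in each of those 3, 10.9 to 28.6 in each library labelled CpG-scrODN, 27.7 to 37.0 in replicates 1 to 3 labelled CpG-STAT3dODN, and 1298 and 338 in the libraries of low Fos.

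Only 3 libraries had Stat4 at 1 RPKM or more, so it was not in the main test. In a fit with no filter (19308 genes) its difference was -1.41 for CpG-scrODN minus PBS (95% interval -2.93 to 0.12, limma adjusted p = 0.378). It was -0.84 for CpG-STAT3dODN minus PBS (limma adjusted p = 0.848) and 0.57 for CpG-STAT3dODN minus CpG-scrODN (limma adjusted p = 0.974). In the same fit without both libraries of low Fos, a setting chosen after seeing the data, these were -0.63 (-0.77 to -0.49, limma adjusted p = 0.000666), -0.50 (-0.65 to -0.36, limma adjusted p = 0.00532) and 0.13 (-0.01 to 0.26, limma adjusted p = 1.00). In that fit Stat4 was lower in both other groups than in the PBS-labelled libraries. How many genes that fit called in all was not counted, so no share of all genes stands beside the call. With the filter, leaving out the same libraries gave 686 and 337 called genes for CpG-scrODN and CpG-STAT3dODN minus PBS, against 452 and 202 with them. Cd3g, a T cell receptor chain picked out with its values in view, had levels of 1.86 to 4.05 RPKM in the PBS-labelled libraries. It had 0.306 to 0.605 in the CpG-scrODN-labelled ones and 0.335 to 0.999 in the CpG-STAT3dODN-labelled ones, by group in the same direction as Stat4. In replicate 4 labelled CpG-STAT3dODN, where Stat4 was at 3.65 RPKM, Cd3g was at 0.335, the lowest of that group. The mean log2(RPKM + 1) of 14 T cell markers was 1.36 to 1.98 in the PBS-labelled libraries, 0.78 to 0.98 in the CpG-scrODN-labelled ones and 0.80 to 1.05 in the CpG-STAT3dODN-labelled ones. That of 11 NK cell markers was 0.88 to 1.20, 0.49 to 0.79 and 0.62 to 0.69. By both means all 4 libraries labelled PBS were above the other 8. In replicate 4 labelled CpG-STAT3dODN the T cell and NK cell means were 0.91 and 0.63, within the range of the other libraries of that group. Summed levels overlapped between groups, with 158 to 177, 162 to 173 and 156 to 172 RPKM for the T cell list, of which Lat alone held 106 to 168, and 21.1 to 28.8, 12.1 to 24.7 and 8.79 to 22.0 for the NK cell list, of which Nkg7 held 4.61 to 23.3. Of the T cell markers, Trat1 was under 0.1 RPKM in all 4 libraries of every group, Bcl11b in both groups other than PBS and Cd28 in the CpG-scrODN-labelled libraries. The summed B cell markers were highest in replicate 4 within 2 groups. They were at 889 RPKM in that labelled PBS (262 to 408 in replicates 1 to 3) and 129 in that labelled CpG-STAT3dODN (31.1 to 57.3). Single markers varied: Cd22 was at 1.46 RPKM in replicate 4 labelled CpG-STAT3dODN, the lowest of that group. Of the 15 B cell markers tested, 0 were above the other 10 libraries in both libraries of low Fos. The part of T, NK or B cells in the Stat4 values was not tested.

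The libraries of low Fos set the extremes of several members. Of the 5 tested, Stat6 was above and Stat5b below the other 10 in both, beside 23.4% and 18.8% of all tested genes that did so. Stat5b was 0.734 and 0.644 times their median. Stat2 and Stat3 were above the other 10 in the library labelled PBS and below them in the one labelled CpG-STAT3dODN. Of the 64 tested genes of the JAK-STAT pathway lists, 18 (28.1%) were above the other 10 in both libraries and 5 (7.81%) were below, beside the same 23.4% and 18.8%. The 3 that follow were picked out with their values in view. Csf2rb, the beta chain shared by the receptors of GM-CSF, interleukin-3 and interleukin-5, was at 665 and 817 RPKM against 80.7 to 151 in the other 10. Il4ra, the interleukin-4 receptor chain that STAT6 serves, was at 21.8 and 25.8 against 7.91 to 16.8. Cish, a STAT5 target that inhibits its signal, was at 50.3 and 66.1 against 19.7 to 42.1. STAT5 targets as a list did not share its direction. Of the 20 tested, 4 were above the other 10 libraries in both and 7 were below, beside the same 23.4% and 18.8%. Of the 4 JAKs, 1 was above and 1 below in both. Jak1 was at 63.1 and 65.4 against 42.9 to 48.8, and Jak3 at 13.9 and 11.7 against 15.9 to 23.9. Jak2 was within the range of the other 10 in both (34.0 and 36.5 against 19.7 to 38.1), and Tyk2 was within it in the library labelled PBS and below it in the other (18.9 and 14.5 against 15.6 to 19.7).

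**Figure D3:**
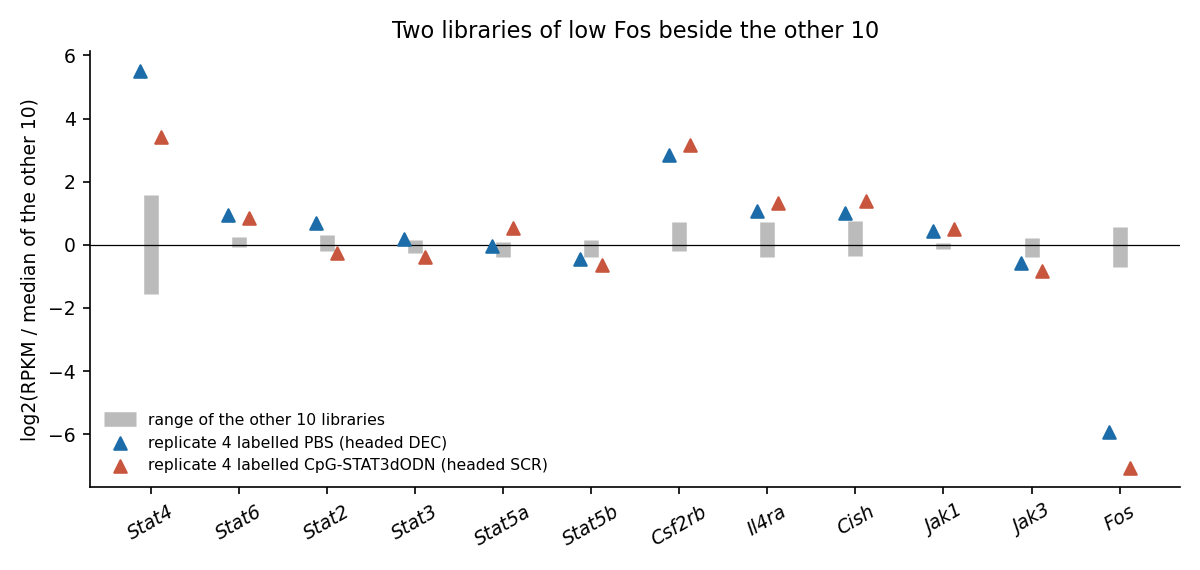
The 2 libraries of low Fos (triangles) beside the range of the other 10 (grey bars), as log2 of RPKM over the median of the other 10, for the 6 Stat genes, 5 genes of their pathway and Fos. Stat4, Stat6, Csf2rb, Il4ra, Cish and Jak1 lie above the grey bars in both libraries, and Stat5b, Jak3 and Fos below them.

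Genes upstream of the STATs were read from lists of JAKs, receptors, inhibitors and partners (73 genes, 64 tested). None of the 4 JAKs was called in any comparison, with 0 at an unadjusted limma p under 0.05 as well. Group means were 47.1 to 51.5 RPKM for Jak1, 26.4 to 32.6 for Jak2, 19.2 to 20.1 for Jak3 and 16.9 to 17.5 for Tyk2, which serves interferon and interleukin-12 receptors. Of the 64, 7 fell for CpG-scrODN minus PBS, 3 fell for CpG-STAT3dODN minus PBS and none was called for CpG-STAT3dODN minus CpG-scrODN, where 2 were under an unadjusted limma p of 0.05, beside 2.71% of all genes. None rose; here and below, fell and rose give the first-named label relative to the second. The shares were 10.9% and 4.69%, beside 4.04% and 1.83% of all genes that fell. The list's median difference was -0.17 and -0.09, beside -0.05 and -0.01 for all genes. With library weights 6 rose and 18 fell for CpG-scrODN minus PBS, 6 rose and 8 fell for CpG-STAT3dODN minus PBS, and 7 rose and 0 fell for CpG-STAT3dODN minus CpG-scrODN. The 7 counted 3 without replicate 3 labelled CpG-scrODN and 4 without replicate 1 of that group. Calls over all genes then went from 452 to 279 and 339. The 3 counted 1 when any of 8 libraries was left out in turn (replicates 1 and 4 labelled PBS and replicates 1 to 3 of each other label). Those 8 fits called 121 to 206 genes in all, against 202 with every library.

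Among the receptors, 5 of 28 tested fell for CpG-scrODN minus PBS (17.9%, beside 4.04% of all genes). Il21r, the interleukin-21 receptor, fell by 2.49 on the log2(RPKM + 1) scale (9.88 ± 5.90 to 0.783 ± 0.268 RPKM, SD, n = 4, limma adjusted p = 0.00263). Il2rb, a chain of the interleukin-2 and interleukin-15 receptors, fell by 1.24 (3.21 ± 1.84 to 0.710 ± 0.343, limma adjusted p = 0.0142). Il6ra, through which interleukin-6 reaches STAT3, fell by 0.64 (3.12 ± 0.563 to 1.63 ± 0.201, limma adjusted p = 0.0238). Csf2ra, the GM-CSF receptor's own chain, fell by 0.51 (limma adjusted p = 0.0384). Ifnar2, a chain of the type I interferon receptor that STAT2 docks on, fell by 0.43 (11.1 ± 1.47 to 7.94 ± 0.607, limma adjusted p = 0.0216). Il21r alone was called for CpG-STAT3dODN minus PBS as well (-1.79, limma adjusted p = 0.0365). That is 3.57% of the 28, beside 1.83% of all genes that fell. For Il21r and Il2rb, which lymphocytes carry, the B cell markers and Cd3g given above were also highest in the PBS-labelled libraries, and the part of those cells was not tested.

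The other receptor genes followed by rule were not called in any comparison. Il6st, the signal chain of interleukin-6, was at 2.95 ± 1.03, 2.15 ± 0.140 and 2.18 ± 0.131 RPKM in the libraries labelled PBS, CpG-scrODN and CpG-STAT3dODN (SD, n = 4). Ifnar1 was at 6.65 ± 3.50, 4.41 ± 0.284 and 5.53 ± 1.68, and Il4ra at 13.2 ± 6.42, 10.4 ± 1.32 and 15.8 ± 7.37. Csf2rb was at 230 ± 290, 107 ± 29.9 and 278 ± 359, with SDs set by the libraries of low Fos. Csf3r, the G-CSF receptor, was at 4.57 ± 0.901, 2.50 ± 0.770 and 3.60 ± 1.32. Kit, the receptor of stem cell factor, was at 21.0 ± 12.4, 32.2 ± 5.67 and 35.5 ± 11.6. Of these 6 receptor genes Csf2rb, whose product signals through STAT5 in progenitors, had the highest mean RPKM in each group.

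Among the inhibitors and phosphatases (18 tested), Ptprc and Ptpn1 fell in both comparisons with the PBS-labelled libraries. Their share was 11.1% in each, beside 4.04% and 1.83% of all genes that fell. Ptprc, the leukocyte phosphatase CD45, which acts on JAKs, was at 37.6 ± 10.1 RPKM in the PBS-labelled libraries, 6.29 ± 1.57 in the CpG-scrODN-labelled ones and 9.63 ± 2.15 in the CpG-STAT3dODN-labelled ones (SD, n = 4). Its differences were -2.40 and -1.85 (limma adjusted p = 8.58e-05 and 0.000818). Ptprc is carried by white blood cells in general, and the B cell markers given above were highest in the same libraries. The mean log2(RPKM + 1) of 14 monocyte and macrophage markers was also higher there, at 3.31 to 3.62 against 2.61 to 3.06 and 2.50 to 3.06, and the part of these cells in the values of Ptprc and the other called genes was not tested. Ptpn1, a phosphatase of JAK2 and TYK2, was at 22.8 ± 2.45, 14.2 ± 0.571 and 16.2 ± 1.96, with differences of -0.64 and -0.47 (limma adjusted p = 0.00243 and 0.0301). Socs3, the feedback inhibitor that STAT3 induces, was at 7.99 ± 2.33, 4.18 ± 0.507 and 4.05 ± 1.07, and its differences of -0.76 and -0.82 missed the threshold (limma adjusted p = 0.0624 and 0.0777). Socs1 was at 10.2 ± 3.91, 14.2 ± 3.00 and 20.5 ± 8.29 and Cish at 28.2 ± 14.8, 26.5 ± 2.47 and 39.6 ± 19.4, neither of them called. None of the 14 partners and cofactors tested was called.

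Genes downstream of the STATs were read from lists of known targets (113 genes, 83 tested). For CpG-scrODN minus PBS, 8 fell and none rose (9.64%, beside 4.04% of all genes), and for CpG-STAT3dODN minus PBS 4 fell and none rose (4.82%, beside 1.83%). For CpG-STAT3dODN minus CpG-scrODN none was called, and 10 of 83 were under an unadjusted limma p of 0.05, beside 2.71% of all genes. The target lists also hold Fos, Junb, Ier3, Zfp36 and Egr2 from the immediate-early list, and their part in the 10 was not counted apart. Of the 20 tested genes of the immediate-early list, 8 were under the same threshold in this comparison. The median difference of the 83 was -0.28, -0.14 and 0.15, beside -0.05, -0.01 and 0.03 for all genes. With library weights the calls went both ways, with 10 higher and 20 lower, 5 higher and 13 lower, and 8 higher and 2 lower in the 3 comparisons. In a fit of only the groups compared, 1 target was higher and 8 lower for CpG-scrODN minus PBS, beside 18 higher and 386 lower over all genes. The 8 counted 5 without replicate 3 labelled CpG-scrODN and 13 without both libraries of low Fos. Calls over all genes then went from 452 to 279 and 686. The 4 counted 1 or 2 without replicate 1 labelled PBS, replicate 1 or 3 labelled CpG-scrODN, or any 1 of the 4 labelled CpG-STAT3dODN. These fits called 121 to 218 genes in all, against 202 with every library.

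Of 26 STAT3 targets tested, 2 fell for CpG-scrODN minus PBS (7.69%, beside 4.04% of all genes that fell). For CpG-STAT3dODN minus PBS 1 of the 26 did (3.85%, beside 1.83%). Cebpd, a transcription factor of myeloid cells, was at 3.34 ± 0.686 RPKM in the PBS-labelled libraries, 1.07 ± 0.269 in the CpG-scrODN-labelled ones and 1.72 ± 0.344 in the CpG-STAT3dODN-labelled ones (SD, n = 4). It fell by 1.07 and by 0.67 (limma adjusted p = 0.00113 and 0.0354). Bcl6, a repressor that STAT3 raises and STAT5 represses, fell by 1.07 for CpG-scrODN minus PBS (limma adjusted p = 0.0120). It is also the 1 call among 20 STAT5 targets (5%, near the 4.04% of all genes that fell).

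Of 23 targets of STAT2 in ISGF3, 4 fell for CpG-scrODN minus PBS and 2 of them also for CpG-STAT3dODN minus PBS. These shares were 17.4% and 8.7%, beside 4.04% and 1.83% of all genes that fell. Ifi27l2a, an interferon-induced gene, was at 8.41 ± 8.13, 0.622 ± 0.0359 and 0.898 ± 0.436 RPKM (SD, n = 4), with differences of -2.20 and -2.00 (limma adjusted p = 0.00891 and 0.0272). Trim30a was at 4.99 ± 2.66, 1.03 ± 0.350 and 1.49 ± 0.396, with differences of -1.48 and -1.18 (limma adjusted p = 0.00466 and 0.0323). Cmpk2, a mitochondrial nucleotide kinase, fell by 1.07 (limma adjusted p = 0.0202) and Samd9l by 0.80 (limma adjusted p = 0.0187), both for CpG-scrODN minus PBS. The 4 genes and Stat2 itself were highest in the PBS-labelled libraries, and only the 4 genes passed the test. Of 11 STAT6 targets, Fcer2a and Gfi1 fell for CpG-scrODN minus PBS (-1.52 and -0.91, limma adjusted p = 0.000265 and 0.0150), and Fcer2a did for CpG-STAT3dODN minus PBS (-1.08, limma adjusted p = 0.00433). As shares of the 11 this was 18.2% and 9.09%, beside the same 4.04% and 1.83%. Fcer2a is the low-affinity IgE receptor CD23 of B cells and was also on the list of B cell markers. None of 9 STAT4 targets was called, and 5, 1 and 0 of them were under an unadjusted limma p of 0.05, beside 15.6%, 9.40% and 2.71% of all genes.

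**Figure D4:**
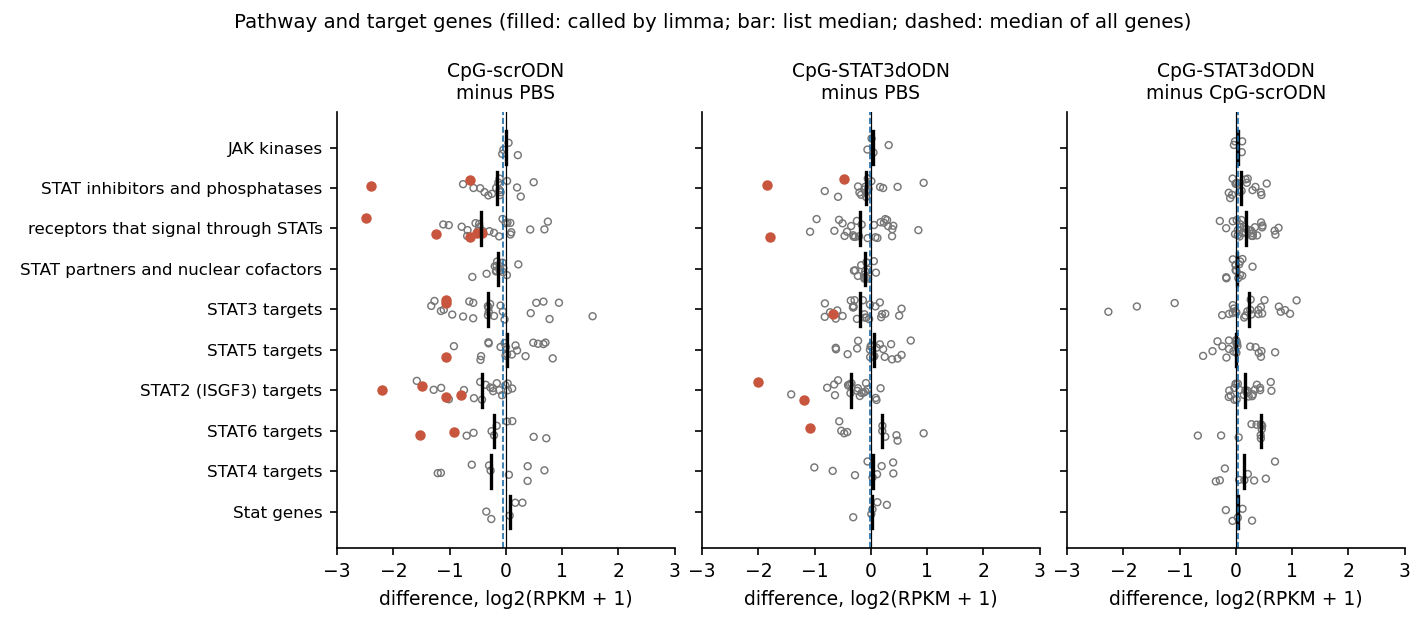
Differences on the log2(RPKM + 1) scale of the tested genes in each list by comparison; filled points were called by limma without library weights, bars are list medians and the dashed line is the median of all genes. Filled points occur only left of 0 and only in both comparisons with the PBS-labelled libraries, while no JAK and none of the 5 Stat genes is filled.

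The genes whose log2 levels ran most like each member over the 12 libraries are given as a description, with Pearson's r and no test. Stat3 ran with Madd (r = 0.940) and Nsd1 (0.924). Stat5a ran with Rps9 (0.956), Ndrg1 (0.936) and Grb10 (0.935), and Stat5b with Bod1l (0.977), Smarca2 (0.973) and Grb2 (0.969). Stat genes were left out of this search, and Spearman's rho of the pairs named ran from 0.762 (Stat6 with Clcn5) to 0.979 (Stat4 with Mfsd6). Stat6 ran with Slc2a6 (0.993), Scamp2 (0.989) and Clcn5 (0.988), and Stat4 with Mfsd6 (0.996), Bcl2l11 (0.990) and Dcaf11 (0.989). Those 2 members' values rest on the libraries of low Fos. Over the other 10 libraries, r fell to 0.869, 0.891 and 0.734 for Stat6 and to 0.946, 0.868 and 0.838 for Stat4. Stat2 ran with Bcl7a (0.966), Samhd1 (0.961) and Helz2 (0.958). Mfsd6 (chr1:52656286-52727358) lies 549 kb from Stat4 on the same chromosome.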

How the data were processed

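RNA was sequenced from 12 libraries, 4 in each of 3 groups taken from the labels. The deposited values are RPKM, made by the authors and named so per the file headers and labels. The submitters' processing notes name mm10, TopHat 1.3.1 and Partek 6.12.0713, with no role given. No source used here gives the annotation, the read length or the handling of reads that fit several places. RPKM are not counts: steps between low values gave whole reads (within 0.05 of a read) for 65.7% to 69.8% of them, so reads were not recovered and no count test was run.

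Genes with at least 1 RPKM in at least 4 libraries (10886) were tested with limma 3.58.1 (R 4.3.3) on log2(RPKM + 1), with the 3 groups in 1 model, a trend in the prior variance, Benjamini-Hochberg adjustment over all genes and a threshold of 0.05, two-sided. The fit was tested on simulated data of independent normal draws per gene. These held no libraries that deviate like those of low Fos, so the simulation cannot tell how such libraries affect the calls. A difference on this scale understates changes of low genes. The log2 ratio of Stat5a to Stat5b was compared by exact permutation. Nothing says that libraries came from separate mice, so p-values measure the spread between these libraries, which may be technical. No pair of libraries held identical profiles.

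Named were all 6 Stat genes, 3 genes most like each, the 4 genes of largest change among those called in each list and comparison and 16 fixed pathway genes. Of the genes so chosen, 2 are not reported here. The members and lists were chosen with earlier results of these data known. Alternatives were another pseudocount, filter or scaling, library weights, only the groups compared, the replicate block, both libraries of low Fos left out and each library left out. Coding sequences are GENCODE M21 models, promoters and loci RefSeq GRCm38.p6; all 6 genes matched. Sequences were compared with Biopython 1.88.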

Additional observations from a re-analysis of the deposited data

Results flagged for a closer look

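In 5 of 21 sets of 4 libraries (6 Stat genes and the ratio of Stat5a to Stat5b, in 3 groups), 1 library lay far from the other 3 by Dixon's test, where chance flags about 1 in 20. Of these, 4 were in the libraries of low Fos. Stat4 in replicate 4 labelled PBS was at 15.6 RPKM, with the other 3 between 0.870 and 1.01. Stat4 in replicate 4 labelled CpG-STAT3dODN was at 3.65 RPKM, with the other 3 between 0.288 and 0.408. Stat6 in replicate 4 labelled PBS was at 55.6 RPKM, with the other 3 between 28.3 and 29.9. The ratio of Stat5a to Stat5b was 2.56 in replicate 4 labelled CpG-STAT3dODN, with the other 3 between 1.11 and 1.15. Stat5a in replicate 4 labelled CpG-scrODN was at 34.6 RPKM, below the other 3 at 39.8 to 40.5, and that library has no low Fos.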

How the results depend on the processing

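No Stat gene was called under any alternative other than library weights, apart from Stat4 in the unfiltered fit without both libraries of low Fos. Library weights gave 3 and 2 Stat genes, 24, 14 and 7 pathway genes and 30, 18 and 10 target genes in the 3 comparisons (CpG-scrODN minus PBS, CpG-STAT3dODN minus PBS, CpG-STAT3dODN minus CpG-scrODN). For CpG-scrODN minus PBS, a floor of 5 RPKM left 4 pathway and 1 target genes, and leaving out both libraries of low Fos gave 13 targets. These fits called 163 of 8065 and 686 of 10886 genes in all, against 452 of 10886 in the main fit. For CpG-STAT3dODN minus PBS, the floor of 5 RPKM left 0 targets, and a fit of only the groups compared called 1 pathway and 1 target gene. Here 76 of 8065 and 78 of 10886 genes were called in all, against 202 of 10886 in the main fit. Fewer genes were tested at the floor; the cause of the other moves was not tested. With each library left out in turn, CpG-scrODN minus PBS gave 3 to 8 pathway and 5 to 11 target genes, and CpG-STAT3dODN minus PBS gave 1 to 3 and 1 to 5. Calls over all genes then ran from 279 to 560 and from 121 to 218.

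Some small differences changed sign, none of them called. For CpG-STAT3dODN minus CpG-scrODN, Stat2 was -0.0131 after quantile normalization, and Stat3 and Stat5a were 0.0443 and -0.0736 with library weights and 0.0457 and -0.0153 without both libraries of low Fos. Leaving out each library gave -0.00654 to 0.0957 for Stat2, -0.135 to 0.0457 for Stat3 and -0.0153 to 0.191 for Stat5a. For CpG-STAT3dODN minus PBS it gave -0.0665 to 0.114 for Stat3, -0.155 to 0.257 for Stat6 and -0.121 to 0.280 for the log2 ratio of Stat5a to Stat5b, which was -0.0176 without both libraries of low Fos.

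By the rule that every same-numbered pair must correlate above 0.1, replicate numbers did not pair the libraries: 5 of 12 same-numbered correlations of deviations were above 0.1 (range -0.341 to 0.817). All 3 pairs numbered 4 were (0.193, 0.817 and 0.151), the highest between the libraries of low Fos. With each library set against each of both other groups, 7 of 24 such matches were best with its own number. With the replicate block, 523, 213 and 0 genes were called (452, 202 and 0 without it), no Stat gene among them, with 12 and 2 targets in both comparisons with PBS (8 and 4 without it). Depth was only estimated, so no counting intervals could be given, and Stat4 rests on under 100 estimated reads in 10 libraries.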
